A study of Homo sapiens with 18 samples.

Results

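BL-41 and Jiyoye, a pair of established Burkitt lymphoma cell lines, were compared in their control state. The libraries were chosen by their labels alone, as all scrambled shRNA libraries of both lines, 3 of BL-41 and 3 of Jiyoye, 6 of the 18 in the series. The study knocked down the transcription factor FOXO3 in 3 Burkitt lines, the third being Namalwa, and profiled messenger RNA from oligo-dT enriched libraries. All cells of both groups had been infected with a lentivirus of the pRSI12-U6-shUbiC-TagRFP backbone, which codes for a red fluorescent protein and here for a scrambled short hairpin RNA, and infected cells were sorted on day 4. BL-41 is known as a line without Epstein-Barr virus, whereas Jiyoye and Namalwa carry the virus. Each line is 1 isolate of 1 tumour, so virus status, tumour of origin and time in culture cannot be told apart in what follows. The labels call the libraries triplicates and do not say whether they came from separate cultures.

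Burkitt lymphoma is a tumour of germinal centre B cells in which MYC is placed under the control of an immunoglobulin locus. Epstein-Barr virus infects B cells, and in its full growth programme the viral protein LMP1 acts like a permanently active CD40 receptor and drives the NF-kB transcription factors. Those factors raise adhesion molecules, co-stimulatory molecules, chemokines and inhibitors of cell death, and cells in that state move away from the germinal centre programme that BCL6 maintains. In most Burkitt tumours the virus keeps LMP1 silent, but some lines express it after long culture.

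The deposited table of each line gave 1 value per arm and no value per library, on a scale of library-size normalized reads. Scrambled values summed to 17.8 and 17.1 times 1000000 in BL-41 and Jiyoye and were scaled to CPM, a share of each 1000000 normalized reads, over all genes of each table. The tables held 16001 genes for BL-41 and 16787 for Jiyoye, 15419 of them in both, and the 12343 genes with at least 1 CPM in the higher line were compared. Differences are log2 of Jiyoye over BL-41, so a positive value is higher in Jiyoye. The number after ± is an approximate standard error (SE), recovered from the authors' fold changes and p-values within each line, and it covers the spread of libraries within a line only. With 1 value per arm no test between lines was possible, no p-value is given, and a gene counts as higher when the difference was at least 2-fold. Levels of different genes are not divided by gene length and are therefore not ranked against each other.

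Jiyoye was at least 2-fold higher for 2448 of the 12343 genes (19.8%) and BL-41 for 1760 (14.3%), and the median over all genes compared was 0.06. Counts in the gene lists below are to be read against these shares. The lists and their members were chosen with earlier results of these data known, so a count above these shares is a description and not a test. A difference of at least 16-fold was found for 603 genes higher in Jiyoye and 401 higher in BL-41, whereas 5839 genes (47.3%) lay within 1.5-fold. Among the 10463 genes whose mean of both lines was 5 CPM or more, the median size of the difference was 0.55 and the median SE was 0.15, with 90% of SE values between 0.11 and 0.32. A 2-fold difference, 1 on the log2 scale, is thus at least 3 times the SE for 95% of these genes. The 10 highest genes took 7.48% of the total in BL-41 and 8.09% in Jiyoye. FOXO3, the target of the knockdown, was at 53.1 CPM in BL-41 and 27.6 CPM in Jiyoye in the scrambled arms and at 29.5 and 22.2 CPM in the FOXO3 shRNA arms.

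**Figure D1:**
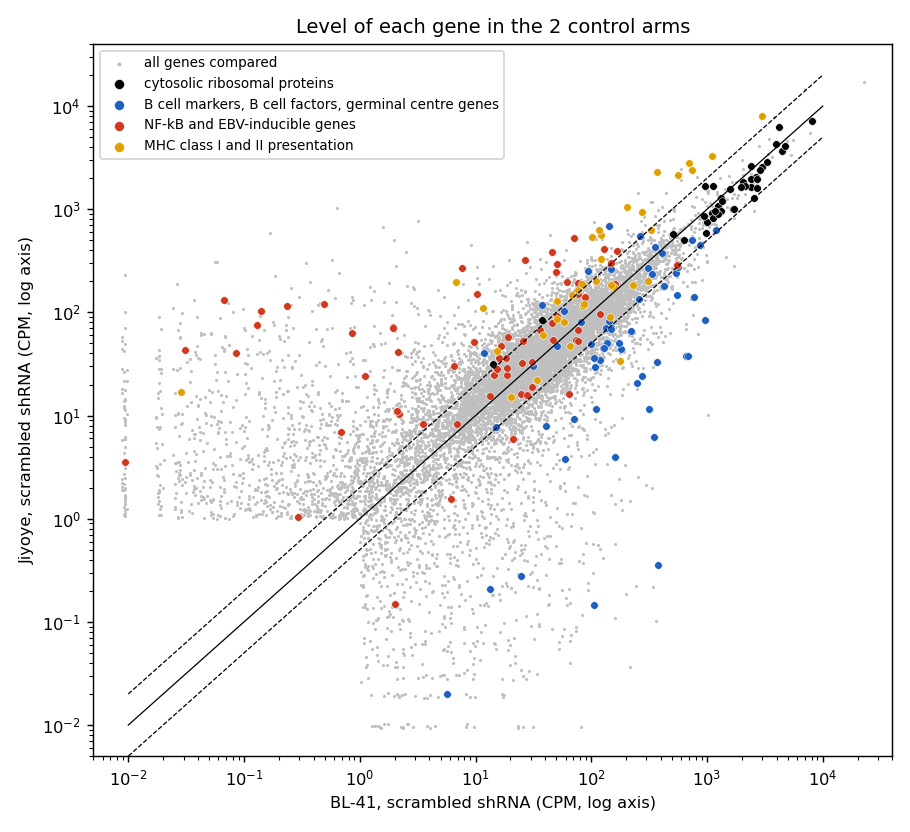
Level of each compared gene in BL-41 (horizontal axis, CPM, log scale) against Jiyoye (vertical axis, CPM, log scale) in the scrambled shRNA arms, 1 point per gene. Of the 12343 genes 5839 lie within 1.5-fold, while 113 genes reach at least 10 CPM in Jiyoye with under 0.1 CPM in BL-41 and 48 show the opposite.

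Both lines carried B cell messages, but at unequal levels. Of 12 B cell markers 10 were higher in BL-41, 1 was higher in Jiyoye and 1 lay within 2-fold, with a median of -3.22. Summed over the list, the markers reached 4959.6 CPM in BL-41, 1236 CPM in Jiyoye and 3864 CPM in Namalwa. In bulk RNA, fewer cells of a type and less RNA per cell cannot be told apart. CD79B, a signalling chain of the B cell receptor, was at 661 CPM in BL-41 and 37.96 CPM in Jiyoye (-4.12 ± 0.12), and its partner CD79A was at 965 CPM in BL-41 and 83.9 CPM in Jiyoye (-3.52 ± 0.13). CD22, an inhibitory co-receptor, was at 275 CPM in BL-41 and 24.1 CPM in Jiyoye (-3.52 ± 0.17). CD24, a surface glycoprotein of immature and germinal centre B cells, was at 312 CPM in BL-41 and 11.6 CPM in Jiyoye (-4.75 ± 0.17). PTPRC, the CD45 phosphatase of all leukocytes, was at 371 CPM in BL-41 and 33.0 CPM in Jiyoye (-3.49 ± 0.15), against 333 CPM in Namalwa. A smaller difference in the same direction was found for MS4A1, which codes for CD20, at -1.14. BLK, a Src-family kinase of B cells, was the member higher in Jiyoye, at 73.8 CPM in BL-41 and 159 CPM in Jiyoye, and the tetraspanin CD37 lay within 2-fold at 307 CPM in BL-41 and 272 CPM in Jiyoye.

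Markers of other cell types were measured beside these. Of 8 compared T and natural killer cell markers 3 were higher in Jiyoye and 3 in BL-41, with summed levels of 139 CPM in BL-41, 93.8 CPM in Jiyoye and 21.0 CPM in Namalwa. Most of the BL-41 sum came from the kinases LCK, at 73.1 CPM in BL-41 and 21.3 CPM in Jiyoye, and ZAP70, at 49.3 CPM in BL-41 and 0.542 CPM in Jiyoye. Most of the Jiyoye sum came from PRF1, at 7.48 CPM in BL-41 and 50.5 CPM in Jiyoye (2.76 ± 0.17). CD7 was also higher in Jiyoye, by 3.07 ± 0.35. CD3E, a CD3 subunit of the T cell receptor complex, was at 1.84 CPM in BL-41 and 2.00 CPM in Jiyoye. Myeloid markers summed to 13.3 CPM in BL-41 and 38.2 CPM in Jiyoye, and 3 of 6 were higher in Jiyoye against 1 in BL-41. All 5 compared epithelial and stromal markers were higher in Jiyoye, with sums of 13.6 and 244 CPM. The Jiyoye sum was mostly keratin 8, KRT8, at 1.23 CPM in BL-41 and 175 CPM in Jiyoye. Others were KRT18, at 0.378 CPM in BL-41 and 11.4 CPM in Jiyoye, and COL1A1, at 0.253 CPM in BL-41 and 10.2 CPM in Jiyoye. PECAM1 was at 8.89 CPM in BL-41 and 41.1 CPM in Jiyoye. The epithelial marker EPCAM, at 0.0384 CPM in BL-41 and 0.103 CPM in Jiyoye, was under 1 CPM in both lines and was not compared. Whether cells of other types contributed to any difference was not tested.

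Genes of the NF-kB pathway lay even or higher in Jiyoye. Of 19 subunit and feedback genes 9 were higher in Jiyoye, 0 were higher in BL-41 and 10 lay within 2-fold, with a median of 0.88 against 0.06 over all genes. The genes that lay far apart were the feedback and survival genes rather than the subunits. TNFAIP3, coding for the A20 enzyme that switches the pathway off, was at 26.6 CPM in BL-41 and 322 CPM in Jiyoye (3.60 ± 0.29) and at 7.47 CPM in Namalwa. BIRC3, a ubiquitin ligase that blocks cell death, was at 71.2 CPM in BL-41 and 522 CPM in Jiyoye (2.87 ± 0.29) and at 77.9 CPM in Namalwa. TRAF1, an adaptor of TNF receptors and LMP1, was at 10.2 CPM in BL-41 and 149 CPM in Jiyoye (3.87 ± 0.25) and at 5.55 CPM in Namalwa. NFKBIA, the inhibitor IkB-alpha, was at 61.4 CPM in BL-41 and 195 CPM in Jiyoye (1.67 ± 0.14). Namalwa, the other line with the virus, lay near or below BL-41 for these genes. CFLAR, which blocks caspase-8, was at 129.7 CPM in BL-41 and 414 CPM in Jiyoye (1.67 ± 0.13), and NFKBIZ, a nuclear IkB protein, was at 9.68 CPM in BL-41 and 52.1 CPM in Jiyoye (2.43 ± 0.21). Among the DNA-binding subunits NFKB2 was higher at 76.3 CPM in BL-41 and 192 CPM in Jiyoye (1.33 ± 0.16), NFKB1 differed by less than 2-fold (0.79 ± 0.13), and RELB was at 73.9 CPM in BL-41 and 53.7 CPM in Jiyoye (-0.46 ± 0.30), with the opposite direction, 0.42, between the FOXO3 shRNA arms. TNFAIP2 was at 0.0310 CPM in BL-41 and 43.5 CPM in Jiyoye, the BL-41 value resting on 4 reads in 6 libraries. MAP3K14, the kinase of the non-canonical branch, was past 2-fold at 1.04 in the scrambled arms but at 0.54 between the FOXO3 shRNA arms.

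The promoters of 3 of these feedback genes are shown because NF-kB is known to act on them. The 250 bases before 1 annotated start per gene were read from a RefSeq table (GRCh38.p14), and both strands were searched for the NF-kB consensus. For TNFAIP3 the start used lies inside the span of the gene, which begins at chr6:137866349. Capitals mark the matches, which do not overlap, and each sequence runs 5′ to 3′ on the strand of its gene.
TNFAIP3, chr6:137867009-137867258, plus strand: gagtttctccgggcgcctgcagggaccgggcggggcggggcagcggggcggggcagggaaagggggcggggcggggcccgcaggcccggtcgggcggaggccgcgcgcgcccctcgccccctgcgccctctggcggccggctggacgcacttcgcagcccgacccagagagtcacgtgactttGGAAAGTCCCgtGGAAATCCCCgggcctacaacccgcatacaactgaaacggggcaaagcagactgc
BIRC3, chr11:102317234-102317483, plus strand: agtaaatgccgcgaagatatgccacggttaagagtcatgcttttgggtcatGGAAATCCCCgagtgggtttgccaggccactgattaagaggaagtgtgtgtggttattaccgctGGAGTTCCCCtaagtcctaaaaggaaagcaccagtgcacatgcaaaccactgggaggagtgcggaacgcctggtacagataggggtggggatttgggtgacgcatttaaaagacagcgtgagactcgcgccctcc
NFKBIA, chr14:35404750-35404999, minus strand: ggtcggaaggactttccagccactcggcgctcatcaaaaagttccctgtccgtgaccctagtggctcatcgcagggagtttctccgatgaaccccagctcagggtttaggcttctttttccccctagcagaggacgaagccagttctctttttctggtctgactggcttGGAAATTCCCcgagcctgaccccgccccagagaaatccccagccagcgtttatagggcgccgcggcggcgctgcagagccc
TNFAIP3 and BIRC3 held 2 matches each and NFKBIA held 1. Of the 19 listed genes 17 were in the table, and 8 of them (47.1%) held a match, against 2614 of 27305 promoters (9.57%) in the whole table. TRAF1 held none in this window. Of genes described below, ICAM1 and CD80 also held none, EBI3 held 1 and CCL22 held 2 that overlap. The start used for CCL22 also lies inside the span of its gene, which begins at chr16:57357909. A match is a run of letters and not a measured binding site.

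Surface molecules that B cells display after infection by the virus or after CD40 ligation followed the same direction. Of 17 genes 11 were higher in Jiyoye, 1 was higher in BL-41 and 5 lay within 2-fold, with a median of 1.52. CD80, a co-stimulatory ligand for T cells, was at 0.487 CPM in BL-41 and 121 CPM in Jiyoye (7.95 ± 0.41). TNFRSF8, the CD30 antigen, was at 0.236 CPM in BL-41 and 115 CPM in Jiyoye, with 26 reads over the 6 BL-41 libraries. CD44, a hyaluronan receptor, was at 0.0677 CPM in BL-41 and 131 CPM in Jiyoye, with 7 reads in BL-41. These genes were near the detection limit in BL-41 and plain in Jiyoye. ICAM1, the adhesion ligand of LFA-1, was at 45.8 CPM in BL-41 and 382 CPM in Jiyoye (3.06 ± 0.14) and at 94.2 CPM in Namalwa. CD58, the ligand of CD2, was at 6.58 CPM in BL-41 and 30.5 CPM in Jiyoye (2.21 ± 0.19), the receptor CD40 was at 19.2 CPM in BL-41 and 57.6 CPM in Jiyoye (1.59 ± 0.17), and the death receptor FAS was at 1.95 CPM in BL-41 and 70.1 CPM in Jiyoye (5.17 ± 0.27). CR2, the complement receptor CD21 through which the virus enters B cells, was at 1.92 CPM in BL-41 and 72.1 CPM in Jiyoye (5.23 ± 0.29) and at 1.31 CPM in Namalwa. Some classical members did not separate the lines. FCER2, which codes for CD23, was at 6.85 CPM in BL-41 and 8.29 CPM in Jiyoye (0.27 ± 0.21; 1.34 between the FOXO3 shRNA arms), against 68.3 CPM in Namalwa, and CD86, the other ligand of CD28, was at 46.9 CPM in BL-41 and 53.7 CPM in Jiyoye (0.19 ± 0.15). ITGB2, the beta chain of LFA-1, was the member higher in BL-41, at 64.7 CPM in BL-41 and 16.2 CPM in Jiyoye (-2.00 ± 0.22).

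Most compared cytokines and chemokines of the same programme were higher in Jiyoye. Of 13 compared genes 8 were higher in Jiyoye (61.5%) and 2 in BL-41 (15.4%), with a median of 2.25. EBI3, the shared chain of interleukins 27 and 35, was at 0.139 CPM in BL-41 and 102 CPM in Jiyoye, with 16 reads in BL-41. CCL22, a chemokine that attracts regulatory T cells, was at 0.0858 CPM in BL-41 and 40.2 CPM in Jiyoye, with 9 reads in BL-41. IL10, which codes for a suppressive cytokine, was at 0.865 CPM in BL-41 and 62.6 CPM in Jiyoye (6.18 ± 0.36). The levels of these 3 genes in Namalwa were 0.512, 0.642 and 0.441 CPM, so that Jiyoye stood apart from both other lines. Of the macrophage inflammatory proteins, CCL3 was at 2.16 CPM in BL-41 and 10.3 CPM in Jiyoye (2.25 ± 0.43). CCL4 was at 2.02 CPM in BL-41 and 0.149 CPM in Jiyoye (-3.77 ± 0.47), with 19 Jiyoye reads in 6 libraries. CCL3 has a near-identical copy, CCL3L1, at 6.18 CPM in BL-41 and 1.54 CPM in Jiyoye (-2.00 ± 0.33). CCL4 and CCL3L1 are the 2 genes higher in BL-41. Reads may be misassigned between CCL3 and CCL3L1, so the direction of each is uncertain. LTA, coding for lymphotoxin alpha, differed by less than 2-fold (0.77 ± 0.21), but by 2.28 between the FOXO3 shRNA arms.

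Of 15 intracellular genes of the programme 8 were higher in Jiyoye and 1 in BL-41, with a median of 1.17. On the mean of both arms 3 of them were higher in BL-41. FSCN1, the actin bundler fascin, was at 0.129 CPM in BL-41 and 74.8 CPM in Jiyoye, with 16 reads in BL-41. MARCKS, a protein kinase C substrate at the membrane, was at 7.61 CPM in BL-41 and 267 CPM in Jiyoye (5.14 ± 0.21), and BATF, an AP-1 factor of activated lymphocytes, was at 2.12 CPM in BL-41 and 41.5 CPM in Jiyoye (4.29 ± 0.23). RUNX3, a transcription factor linked to growth of virus-transformed B cells, was at 50.8 CPM in BL-41 and 296 CPM in Jiyoye (2.54 ± 0.16), and JUNB, another AP-1 subunit, was at 49.3 CPM in BL-41 and 249 CPM in Jiyoye (2.34 ± 0.16). The death inhibitor BCL2A1 was low in both lines, at 3.51 CPM in BL-41 and 8.20 CPM in Jiyoye (1.22 ± 0.27). VIM, the intermediate filament vimentin, was nearly 2-fold lower in Jiyoye, at 549 CPM in BL-41 and 291 CPM in Jiyoye (-0.91 ± 0.15), and LGALS1, galectin-1, was at 18.8 CPM in BL-41 and 29.0 CPM in Jiyoye (0.62 ± 0.20). Between the FOXO3 shRNA arms VIM was past 2-fold, at -1.31, and LGALS1 had the opposite direction, at -0.61.

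**Figure D2:**
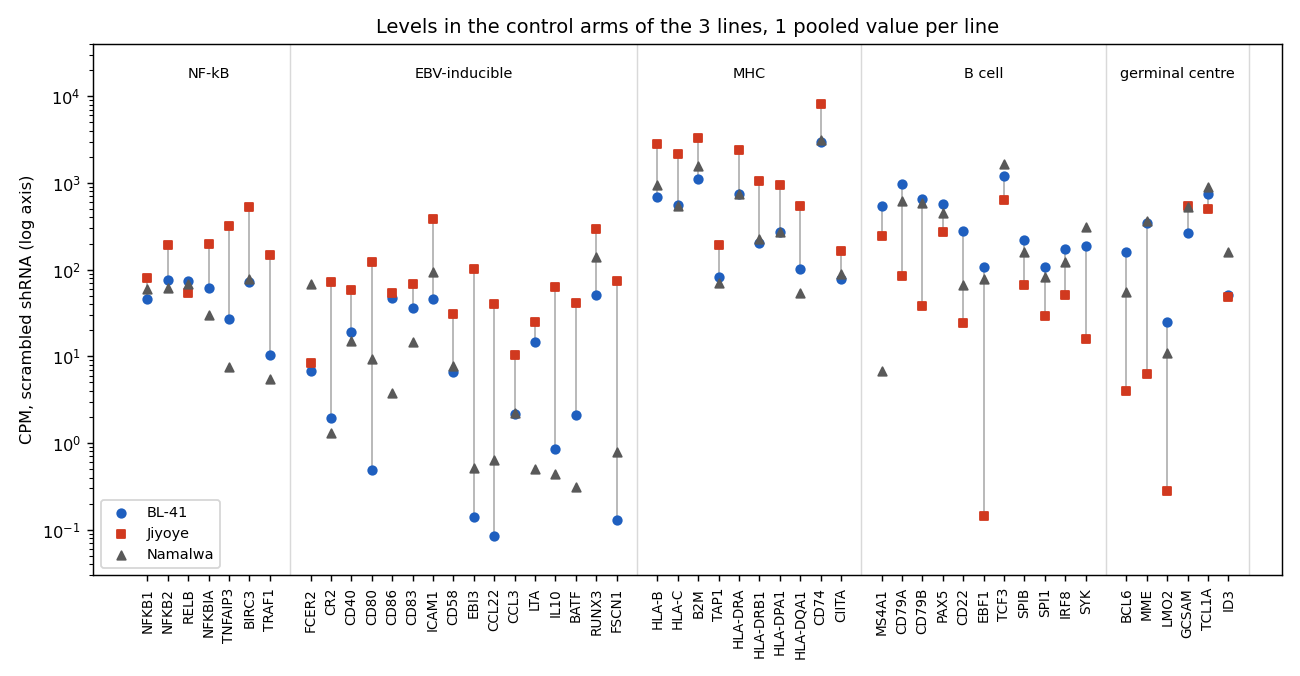
Level of selected NF-kB, virus-inducible, antigen presentation, B cell and germinal centre genes in the scrambled arms of BL-41, Jiyoye and Namalwa (vertical axis, CPM, log scale), 1 mark per line and gene. TRAF1, for example, lies at 10.2 CPM in BL-41, 149 in Jiyoye and 5.55 in Namalwa, while MME lies at 349, 6.18 and 361 CPM.

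Most class II genes of antigen presentation were higher in Jiyoye, and class I genes were higher or within 2-fold. Class II molecules display peptides to CD4 T cells, and class I molecules display peptides to CD8 T cells. Of 19 class II genes 12 were higher in Jiyoye, 1 was higher in BL-41 and 6 lay within 2-fold, with a median of 1.43. HLA-DRA, the alpha chain of HLA-DR, was at 749 CPM in BL-41 and 2419.9 CPM in Jiyoye (1.69 ± 0.14), with 742 CPM in Namalwa. HLA-DPA1 was at 272 CPM in BL-41 and 939 CPM in Jiyoye (1.79 ± 0.13) and HLA-DQA1 at 102 CPM in BL-41 and 540.1 CPM in Jiyoye (2.41 ± 0.14). HLA-DRB1 was at 203 CPM in BL-41 and 1041 CPM in Jiyoye (2.36 ± 0.13). The HLA-DRB and HLA-DQA genes have near-identical copies and differ between donors, so reads may be misassigned and their values are uncertain. CD74, the invariant chain that chaperones class II, was at 2998 CPM in BL-41 and 8068 CPM in Jiyoye (1.43 ± 0.12), and CIITA, the master regulator of the class, was at 77.3 CPM in BL-41 and 166 CPM in Jiyoye (1.10 ± 0.13). The single gene higher in BL-41 was CTSS, the protease that trims the invariant chain, at 177 CPM in BL-41 and 34.2 CPM in Jiyoye (-2.37 ± 0.14). Between the FOXO3 shRNA arms the differences were wider, at 2.92 for HLA-DRA, 2.93 for HLA-DPA1, 3.77 for HLA-DRB1 and 2.62 for CD74. HLA-DOB, which restrains peptide loading, was at 33.9 CPM in BL-41 and 22.03 CPM in Jiyoye (-0.62 ± 0.19), and its difference was 0.12 between the FOXO3 shRNA arms.

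Class II promoters are known for a Y box, a CCAAT sequence bound by NF-Y, among conserved upstream elements. The word CCAAT was searched on both strands, so ATTGG on the printed strand is also a match, and capitals mark the matches in 2 promoters of the group.
HLA-DRB1, chr6:32589849-32590098, minus strand: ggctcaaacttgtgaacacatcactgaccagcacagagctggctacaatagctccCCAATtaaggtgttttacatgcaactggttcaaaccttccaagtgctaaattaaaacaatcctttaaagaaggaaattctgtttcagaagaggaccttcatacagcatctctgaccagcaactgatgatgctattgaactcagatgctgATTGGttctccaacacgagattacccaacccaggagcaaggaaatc
HLA-DQA1, chr6:32637156-32637405, plus strand: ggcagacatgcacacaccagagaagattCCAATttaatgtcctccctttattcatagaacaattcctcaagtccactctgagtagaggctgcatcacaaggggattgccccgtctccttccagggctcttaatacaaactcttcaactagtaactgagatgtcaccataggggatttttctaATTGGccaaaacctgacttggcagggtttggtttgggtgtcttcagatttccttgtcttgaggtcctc
Each of them held 2 matches. Of the class II genes 16 were in the table and 13 of them (81.3%) held a CCAAT word in the 250 bases, against 9021 of 27305 promoters (33.0%). Among 15 class I genes 7 held the CCAAT word and 6 held the NF-kB consensus.

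For class I, 8 of 17 genes were higher in Jiyoye, 9 lay within 2-fold, 0 were higher in BL-41, and the median was 0.92. The heavy chains HLA-B, at 692 CPM in BL-41 and 2815 CPM in Jiyoye (2.02 ± 0.14), and HLA-C, at 558 CPM in BL-41 and 2141 CPM in Jiyoye (1.94 ± 0.12), differed in the same direction. B2M, the light chain common to all of them, was at 1106 CPM in BL-41 and 3259 CPM in Jiyoye (1.56 ± 0.14), with 1581 CPM in Namalwa. The chains share long stretches and vary between donors, which leaves the split of reads among them uncertain. TAP1, the peptide transporter, was at 82.6 CPM in BL-41 and 191 CPM in Jiyoye (1.21 ± 0.11), whereas its partner TAP2 was at 144 CPM in BL-41 and 90.8 CPM in Jiyoye (-0.67 ± 0.13). The immunoproteasome subunits PSMB8 and PSMB9 differed by 1.35 ± 0.13 and 1.48 ± 0.18. NLRC5, the class I regulator, did not reach 2-fold, at 50.5 CPM in BL-41 and 86.1 CPM in Jiyoye (0.77 ± 0.13), and was highest in Namalwa at 149 CPM. Its difference was 1.41 between the FOXO3 shRNA arms.

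The germinal centre programme lay in the other direction. Of 27 compared germinal centre and Burkitt genes 17 were higher in BL-41, 3 were higher in Jiyoye and 7 lay within 2-fold, with a median of -1.55. BCL6, the repressor that maintains the germinal centre state, was at 160.1 CPM in BL-41 and 3.97 CPM in Jiyoye (-5.33 ± 0.20) and at 55.8 CPM in Namalwa. MME, the CD10 peptidase used to diagnose Burkitt lymphoma, was at 349 CPM in BL-41 and 6.18 CPM in Jiyoye (-5.82 ± 0.21) and at 361 CPM in Namalwa. LMO2, a germinal centre cofactor, was at 24.6 CPM in BL-41 and 0.276 CPM in Jiyoye (-6.48 ± 0.40). EZH2, the methyltransferase that silences plasma cell genes in germinal centres, was at 118 CPM in BL-41 and 34.8 CPM in Jiyoye (-1.77 ± 0.13), and FOXP1 was at 109 CPM in BL-41 and 11.5 CPM in Jiyoye (-3.25 ± 0.14). Exceptions went against that lean. GCSAM, a regulator of germinal centre cell motility, was at 264 CPM in BL-41 and 547 CPM in Jiyoye (1.05 ± 0.36), and S1PR2, a receptor that confines cells to the follicle, was at 37.4 CPM in BL-41 and 118 CPM in Jiyoye (1.66 ± 0.17). ID3, the inhibitor of TCF3 that is often mutated in Burkitt lymphoma, was at 50.8 CPM in BL-41 and 47.7 CPM in Jiyoye (-0.09 ± 0.21), and TCL1A was at 748 CPM in BL-41 and 506 CPM in Jiyoye (-0.56 ± 0.17). Between the FOXO3 shRNA arms both had the opposite direction, at 0.20 and 0.19.

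More transcription factors of B cell identity were higher in BL-41 than in Jiyoye, but they did not differ as a block. Of 19 genes 8 were higher in BL-41 (42.1%) and 2 in Jiyoye (10.5%), against 14.3% and 19.8% of all genes compared. The other 9 lay within 2-fold, and the median was -0.95. EBF1, which with PAX5 commits cells to the B lineage, was at 106 CPM in BL-41 and 0.146 CPM in Jiyoye, and the Jiyoye value rests on 16 reads in 6 libraries, while Namalwa had 78.7 CPM. PAX5 itself was at 565 CPM in BL-41 and 274 CPM in Jiyoye (-1.04 ± 0.14), a difference of -0.93 between the FOXO3 shRNA arms. BACH2, which holds back plasma cell differentiation, was among the largest differences of all genes, at 376 CPM in BL-41 and 0.359 CPM in Jiyoye (-10.03 ± 0.37), against 268 CPM in Namalwa. SPIB was at 222 CPM in BL-41 and 66.7 CPM in Jiyoye (-1.74 ± 0.17), SPI1, coding for PU.1, at 108 CPM in BL-41 and 29.4 CPM in Jiyoye (-1.88 ± 0.17), and IRF8 at 174 CPM in BL-41 and 50.5 CPM in Jiyoye (-1.79 ± 0.16). POU2AF1, the co-activator OCA-B, did not separate the lines (0.25 ± 0.15). IKZF3, which codes for Aiolos, was higher in Jiyoye at 142 CPM in BL-41 and 688 CPM in Jiyoye (2.27 ± 0.14), and MEF2C was too, by 1.42 ± 0.14.

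Signalling below the B cell receptor followed the receptor chains in part. Of 28 compared genes 11 were higher in BL-41 and 4 in Jiyoye, with a median of -0.84. SYK, the kinase that binds CD79A and CD79B, was at 185 CPM in BL-41 and 15.8 CPM in Jiyoye (-3.55 ± 0.16) and at 308 CPM in Namalwa. LYN, the Src-family kinase upstream of it, differed by -1.22 ± 0.14, and the phosphatase PTPN6 by -1.15 ± 0.15. PIK3AP1, an adaptor that recruits PI3 kinase, was at 227 CPM in BL-41 and 45.6 CPM in Jiyoye (-2.32 ± 0.13). VPREB1, a surrogate light chain gene of precursor B cells, was at 21.4 CPM in BL-41 and 0.0705 CPM in Jiyoye, with 8 Jiyoye reads. VPREB3 was at 145 CPM in BL-41 and 16.3 CPM in Jiyoye. Downstream components were closer. BTK differed by -0.86 ± 0.12, PLCG2 by -0.23 ± 0.10 and the adaptor BLNK by 0.85 ± 0.15. MALT1, the protease that links the receptor to NF-kB, was higher in Jiyoye at 48.3 CPM in BL-41 and 119.8 CPM in Jiyoye (1.31 ± 0.14). Of 12 listed immunoglobulin genes 2 could be compared. IGLL5, which shares sequence with the lambda light chain locus and is therefore uncertain, was at 658 CPM in BL-41 and 69.0 CPM in Jiyoye, and JCHAIN, the joining chain of secreted antibodies, was at 1261 CPM in BL-41 and 1258 CPM in Jiyoye. The other immunoglobulin genes were not analysed here.

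Plasma cell genes were divided between the lines. Of 20 genes 8 were higher in Jiyoye (40%) and 5 in BL-41 (25%), with a median of 0.29. Over all genes compared the shares were 19.8% and 14.3%. IRF4, which drives plasma cell differentiation and also responds to NF-kB, was at 208 CPM in BL-41 and 569.7 CPM in Jiyoye (1.45 ± 0.16) with scrambled shRNA. Its order was the opposite with FOXO3 shRNA, at 291 CPM in BL-41 and 199 CPM in Jiyoye (-0.55). ELL2, an elongation factor of antibody-secreting cells, was at 13.2 CPM in BL-41 and 211 CPM in Jiyoye (4.01 ± 0.16), CD27, a memory B cell receptor, at 16.3 CPM in BL-41 and 83.0 CPM in Jiyoye (2.35 ± 0.14), and SLAMF7, a surface target used against myeloma, at 0.580 CPM in BL-41 and 326 CPM in Jiyoye (9.13 ± 0.41). XBP1, the factor of the secretory apparatus, was lower in Jiyoye, at 682 CPM in BL-41 and 289 CPM in Jiyoye (-1.24 ± 0.14), as was its activator ERN1, at 173 CPM in BL-41 and 49.9 CPM in Jiyoye (-1.79 ± 0.20). The XBP1 and ERN1 differences were -0.97 and -0.49 between the FOXO3 shRNA arms, both under 2-fold, and those of TNFRSF17 and MZB1 went from -1.58 and -1.13 to -0.35 and -0.44. PRDM1, coding for BLIMP1, did not reach 2-fold (0.70 ± 0.19).

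**Figure D3:**
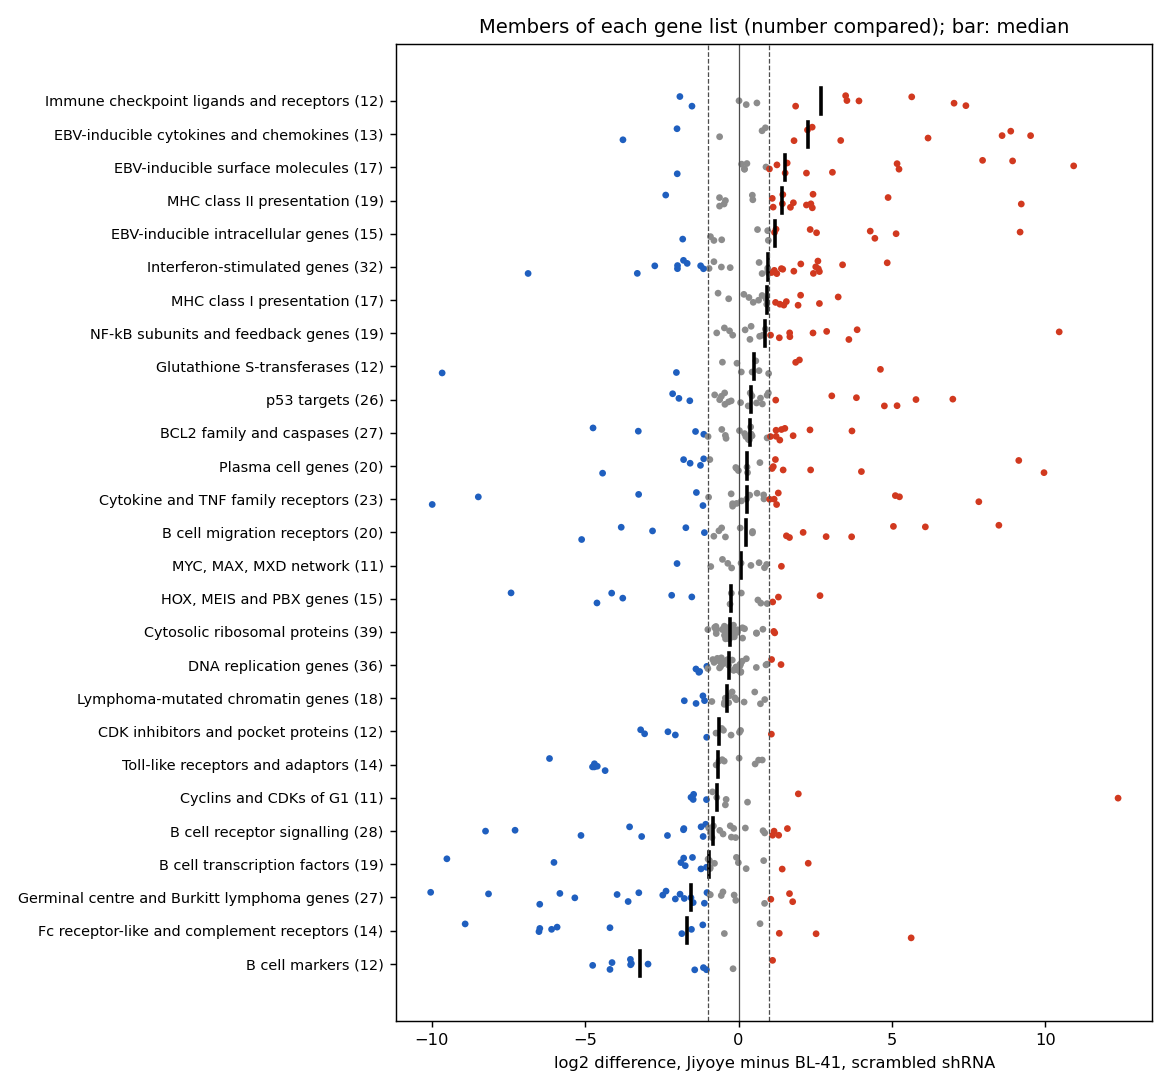
Log2 difference, Jiyoye minus BL-41, (horizontal axis) of every compared member of the gene lists shown, 1 point per gene and 1 row per list, with a bar at each list's median and dashed lines at 2-fold. The medians shown range from -3.22 for B cell markers to 2.68 for the checkpoint list, against 0.06 over all genes. The checkpoint list includes the proton channel gene HVCN1.

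Of 14 Toll-like receptor and adaptor genes 6 were higher in BL-41 (42.9%), 0 in Jiyoye and 8 lay within 2-fold (median -0.68). Over all genes compared 14.3% were higher in BL-41 and 19.8% in Jiyoye. TLR7, which senses single-stranded RNA, was at 53.8 CPM in BL-41 and 2.07 CPM in Jiyoye (-4.70 ± 0.24), TLR10 at 81.7 CPM in BL-41 and 4.02 CPM in Jiyoye (-4.35 ± 0.30), and CD180, a Toll-like receptor homologue of B cells, at 175 CPM in BL-41 and 2.45 CPM in Jiyoye (-6.16 ± 0.23). TLR9, the DNA sensor, stayed within 2-fold (-0.73 ± 0.20). Of 14 Fc receptor-like and complement receptor genes 9 were higher in BL-41 (64.3%) and 3 in Jiyoye (21.4%), with a median of -1.69. FCRL5 was at 103 CPM in BL-41 and 1.16 CPM in Jiyoye (-6.48 ± 0.34). FCGR2B, the inhibitory Fc receptor, was at 55.7 CPM in BL-41 and 0.817 CPM in Jiyoye (-6.09 ± 0.37), a value made uncertain by its near-identical neighbours. FCRL2 was at 8.92 CPM in BL-41 and 0.0186 CPM in Jiyoye, and 2 Jiyoye reads in 6 libraries gave a ratio of 481-fold (counting interval 133 to 3968), an interval for counting error only.

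Migration receptors went both ways. Of 20 genes 8 were higher in Jiyoye (40%) and 5 in BL-41 (25%), with a median of 0.25. Over all genes compared the shares were 19.8% and 14.3%. CCR7, which guides cells to T cell zones, was at 44.0 CPM in BL-41 and 566 CPM in Jiyoye (3.69 ± 0.15) and at 1.91 CPM in Namalwa. GPR183, the oxysterol receptor also known as EBI2, was lower in Jiyoye, at 42.1 CPM in BL-41 and 6.03 CPM in Jiyoye (-2.80 ± 0.22), although it was named as a gene induced by the virus. KLF2, a factor of lymphocyte quiescence and trafficking, was at 14.9 CPM in BL-41 and 1.06 CPM in Jiyoye (-3.82 ± 0.31), and the sphingosine phosphate receptor S1PR4 at 33.9 CPM in BL-41 and 0.980 CPM in Jiyoye (-5.11 ± 0.36).

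Cytokine and TNF family receptors included some of the widest separations among surface genes. Of 23 genes 7 were higher in Jiyoye (30.4%) and 5 in BL-41 (21.7%), against 19.8% and 14.3% of all genes compared. IL6R, the interleukin-6 receptor, was at 0.608 CPM in BL-41 and 139 CPM in Jiyoye (7.83 ± 0.33), and TNFRSF1B, the TNF receptor TNFR2, was at 4.73 CPM in BL-41 and 164 CPM in Jiyoye (5.11 ± 0.22), with 177 CPM in Namalwa. IL7R, the receptor of precursor lymphocytes, was at 66.1 CPM in BL-41 and 0.0654 CPM in Jiyoye, with 7 Jiyoye reads in 6 libraries and 74.8 CPM in Namalwa. Of 12 compared genes on the checkpoint list 7 were higher in Jiyoye (58.3%) and 2 in BL-41 (16.7%), with a median of 2.68. These figures include HVCN1, which codes for a proton channel and is not a checkpoint gene. HVCN1 was 1 of the 2 higher in BL-41, at 177 CPM in BL-41 and 47.2 CPM in Jiyoye (-1.91 ± 0.12). Between the FOXO3 shRNA arms its difference was -0.94. CD274, which codes for the PD-L1 ligand, was at 0.643 CPM in BL-41 and 9.77 CPM in Jiyoye (3.93 ± 0.41), and HAVCR2, coding for TIM-3, at 0.821 CPM in BL-41 and 41.1 CPM in Jiyoye (5.64 ± 0.31), a difference of 3.50 between the FOXO3 shRNA arms. LGALS9, a TIM-3 ligand, was lower in Jiyoye with scrambled shRNA, at 13.0 CPM in BL-41 and 4.54 CPM in Jiyoye (-1.52 ± 0.25), and nearly even with FOXO3 shRNA (-0.21).

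Interferon-stimulated genes were split within the group. Of 32 compared genes 14 were higher in Jiyoye (43.8%) and 9 in BL-41 (28.1%), with a median of 0.95. Over all genes compared the shares were 19.8% and 14.3%. MX1, a dynamin-like antiviral GTPase, was at 6.67 CPM in BL-41 and 70.0 CPM in Jiyoye (3.39 ± 0.22), whereas its close relative MX2 was at 76.9 CPM in BL-41 and 7.81 CPM in Jiyoye (-3.30 ± 0.21). IFIH1, the RNA sensor MDA5, was at 5.204 CPM in BL-41 and 32.4 CPM in Jiyoye (2.64 ± 0.24) and IFIT3 at 0.296 CPM in BL-41 and 8.51 CPM in Jiyoye (4.85 ± 0.44). The membrane proteins IFITM2, at 159.9 CPM in BL-41 and 1.38 CPM in Jiyoye (-6.86 ± 0.25), and IFITM1, at 113 CPM in BL-41 and 32.7 CPM in Jiyoye (-1.79 ± 0.19), were higher in BL-41, and they are close copies of each other. ISG15, a ubiquitin-like modifier, was at 10.3 CPM in BL-41 and 19.9 CPM in Jiyoye (0.95 ± 0.18), just under 2-fold.

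Of 27 BCL2 family and caspase genes 9 were higher in Jiyoye, 4 in BL-41 and 14 lay within 2-fold, with a median of 0.38. These are 33.3% and 14.8% of the list, against 19.8% and 14.3% of all genes compared. Inhibitors and activators of death were both among the members higher in Jiyoye. BCL2 was at 47.2 CPM in BL-41 and 124 CPM in Jiyoye (1.40 ± 0.23) and BCL2L1, coding for BCL-XL, at 42.0 CPM in BL-41 and 107 CPM in Jiyoye (1.35 ± 0.15), while BCL2L11, coding for the killer protein BIM, was at 36.8 CPM in BL-41 and 105 CPM in Jiyoye (1.51 ± 0.15). The killers BIK, at 58.3 CPM in BL-41 and 6.06 CPM in Jiyoye (-3.27 ± 0.22), and HRK, at 53.6 CPM in BL-41 and 2.00 CPM in Jiyoye (-4.74 ± 0.26), were higher in BL-41. MCL1 did not separate the lines (0.20 ± 0.12). Among 26 p53 targets 7 were higher in Jiyoye (26.9%) and 3 in BL-41 (11.5%). The arrest gene CDKN1A and the p53 ligase MDM2 were within 2-fold (0.07 ± 0.15 and -0.56 ± 0.15), whereas TP53INP1, a stress protein, was at 48.0 CPM in BL-41 and 395 CPM in Jiyoye (3.04 ± 0.18).

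In the machinery of the G1 phase the lines differed in D-type cyclins. CCND2, coding for cyclin D2, was at 0.0587 CPM in BL-41 and 311 CPM in Jiyoye, the BL-41 value resting on 7 reads in 6 libraries. CCND3, coding for cyclin D3, which germinal centre B cells require, was at 106 CPM in BL-41 and 36.2 CPM in Jiyoye (-1.55 ± 0.17) and at 277 CPM in Namalwa. The CCND3 difference was -0.91 between the FOXO3 shRNA arms. Of 12 CDK inhibitor and pocket protein genes 5 were higher in BL-41 (41.7%) and 1 in Jiyoye (8.33%). Over all genes compared the shares were 14.3% and 19.8%. CDKN2C, coding for p18, was at 38.4 CPM in BL-41 and 4.60 CPM in Jiyoye (-3.06 ± 0.21), and CDKN1B, coding for p27, was at 49.7 CPM in BL-41 and 104 CPM in Jiyoye (1.07 ± 0.18). E2F1, the activator of S phase genes, differed by -1.46 ± 0.21 with scrambled shRNA and by -0.55 with FOXO3 shRNA. MYC, the oncogene of the disease, was higher in Jiyoye at 375 CPM in BL-41 and 989 CPM in Jiyoye (1.40 ± 0.14), with 1048 CPM in Namalwa. Its partner MAX was even between the lines (0.08 ± 0.12), and of the 11 genes of the network 9 lay within 2-fold. FOXO1, a factor of the germinal centre dark zone, was at 128 CPM in BL-41 and 45.3 CPM in Jiyoye (-1.50 ± 0.12), and FOXO3 differed by -0.94 ± 0.15.

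Ribosomal protein and DNA replication genes differed little. Of 39 cytosolic ribosomal protein genes 37 lay within 2-fold and 2, the paralogues RPL22L1 and RPS27L, were higher in Jiyoye, with a median of -0.28. Of 36 DNA replication genes 30 lay within 2-fold, with a median of -0.32. Of 18 chromatin genes that are mutated in lymphoma 4 were higher in BL-41 (22.2%) and 0 in Jiyoye. Over all genes compared the shares were 14.3% and 19.8%. Those higher in BL-41 included EZH2 (-1.77), DNMT3B (-1.38 ± 0.18), UHRF1 (-1.16 ± 0.19) and BCL7A (-1.11 ± 0.12). DNMT3B and BCL7A were under 2-fold between the FOXO3 shRNA arms, at -0.86 and -0.44. The acetyltransferases CREBBP and EP300 differed by -0.44 ± 0.12 and -0.43 ± 0.14.

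The largest differences were close to presence against absence. Among genes with at least 20 CPM in the higher line, ANKRD30A was at 0.00939 CPM in BL-41 and 230.0 CPM in Jiyoye, and 1 BL-41 read in 6 libraries gave a ratio of 24488-fold (counting interval 4395 to 967220.0), which covers counting error only. Such intervals use the reads of both arms, whereas the ratio is of the scrambled arms. UGT2B17, an enzyme that conjugates steroids and is deleted in part of the human population, was at 0.00943 CPM in BL-41 and 101 CPM in Jiyoye, a ratio of 10712-fold (counting interval 1923 to 423102) from 1 BL-41 read. AKR1C1, an aldo-keto reductase with close copies in the genome, was at 0.0265 CPM in BL-41 and 189.7 CPM in Jiyoye, a ratio of 7151-fold (counting interval 2447 to 34677) from 3 BL-41 reads. BNC2, a zinc finger factor, was at 0.0563 CPM in BL-41 and 307 CPM in Jiyoye, with 6 reads in BL-41. In the opposite direction TM6SF1 was at 81.8 CPM in BL-41 and 0.00959 CPM in Jiyoye, with a ratio of 8536-fold (counting interval 1532 to 337136) from 1 Jiyoye read. CADM1, an adhesion molecule, was at 216 CPM in BL-41 and 0.0364 CPM in Jiyoye, with 4 reads in Jiyoye. H1F0, the linker histone H1.0, was at 360.3 CPM in BL-41 and 0.103 CPM in Jiyoye, with 10 reads. IGF2BP1, a fetal RNA-binding protein, was at 339 CPM in BL-41 and 0.216 CPM in Jiyoye (-10.62 ± 0.39), with 27 Jiyoye reads, and at 293 CPM in Namalwa. MPEG1, a pore-forming protein of phagocytes and B cells, was at 159 CPM in BL-41 and 0.109 CPM in Jiyoye, with 12 Jiyoye reads. UCHL1, a neuronal and germinal centre deubiquitinase, was at 245 CPM in BL-41 and 0.223 CPM in Jiyoye (-10.10 ± 0.38) and at 507 CPM in Namalwa.

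Where the lower line had over 30 reads in its 6 libraries, the difference carried less counting error. GPR15, a homing receptor of lymphocytes, led with 0.633 CPM in BL-41 and 1035 CPM in Jiyoye (10.68 ± 0.40) and 0.175 CPM in Namalwa. PLS3, the actin bundler plastin 3, was at 0.345 CPM in BL-41 and 303 CPM in Jiyoye (9.77 ± 0.41), IGFBP2 at 0.369 CPM in BL-41 and 197 CPM in Jiyoye (9.06 ± 0.51), and CA9, the hypoxia-inducible carbonic anhydrase, at 0.244 CPM in BL-41 and 113 CPM in Jiyoye (8.86 ± 0.57). CTNNA1, the alpha-catenin of adherens junctions, was at 0.297 CPM in BL-41 and 142 CPM in Jiyoye (8.90 ± 0.40), and TIMP1, a metalloproteinase inhibitor, was at 0.242 CPM in BL-41 and 90.8 CPM in Jiyoye (8.55 ± 0.42). On the BL-41 side, after UCHL1 and BACH2, ASB2 was at 93.2 CPM in BL-41 and 0.239 CPM in Jiyoye (-8.60 ± 0.40), the potassium channel KCNJ12 at 126 CPM in BL-41 and 0.417 CPM in Jiyoye (-8.24 ± 0.40), SMAD1, a carrier of BMP signals, at 114 CPM in BL-41 and 0.555 CPM in Jiyoye (-7.68 ± 0.35), and ASS1, the enzyme that makes argininosuccinate, at 335 CPM in BL-41 and 1.99 CPM in Jiyoye (-7.39 ± 0.30). Namalwa had 117 CPM of SMAD1 and 307 CPM of ASS1, close to BL-41. Genes in 1 table only add to this contrast. The BL-41 table alone listed 582 genes, 9 of them with at least 10 CPM, among them the adaptor SLA at 27.4 CPM and the recombinase subunit RAG2 at 21.5 CPM. The Jiyoye table alone listed 1368, 33 of them with at least 10 CPM, among them LRIG3 at 111, the keratin KRT5 at 96.4 and the cytokine receptor CRLF2 at 54.7 CPM. No fold is given for these genes.

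**Figure D4:**
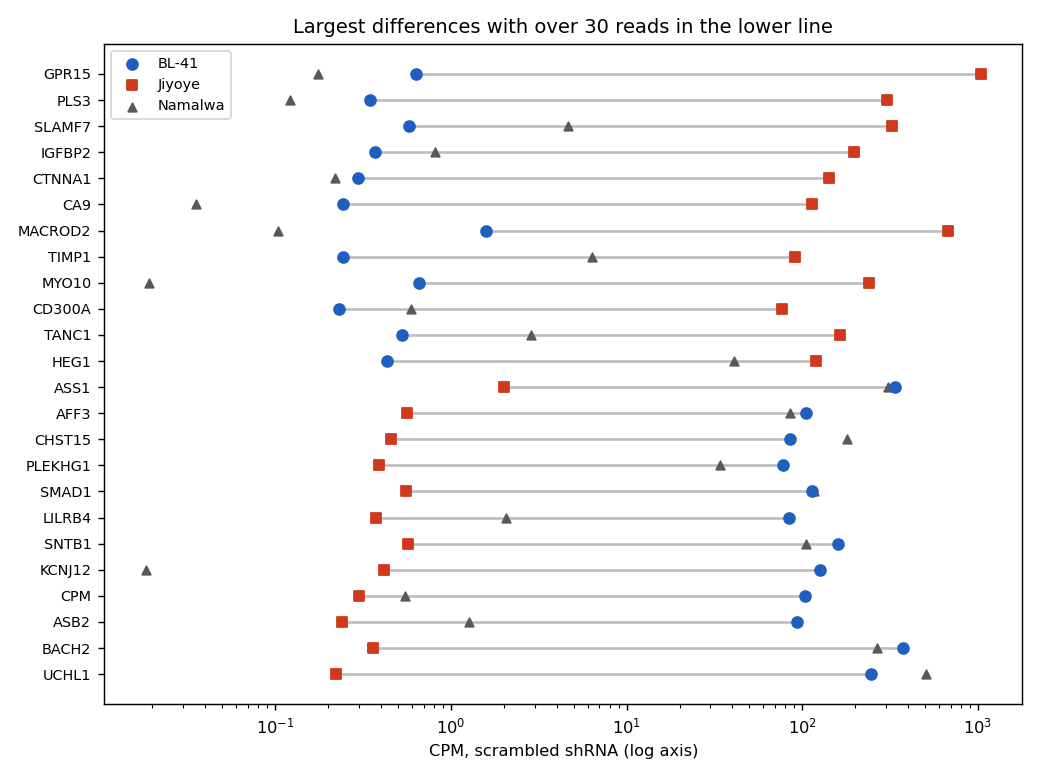
Level in the scrambled arms of BL-41, Jiyoye and Namalwa (horizontal axis, CPM, log scale) for the 12 genes furthest apart in each direction that had over 30 reads in the lower line. GPR15 lies at 0.633 CPM in BL-41 and 1035 in Jiyoye, and BACH2 at 376 and 0.359 CPM.

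Of 8 compared cancer-testis genes, which are active in germ cells and some tumours, 6 were higher in Jiyoye and 2 in BL-41. SPANXB1 was at 0.256 CPM in BL-41 and 117 CPM in Jiyoye (8.84 ± 0.50), with 28 reads over the 6 BL-41 libraries. MAGEA6 was at 8.70 CPM in BL-41 and 81.7 CPM in Jiyoye and MAGEA3 at 43.2 CPM in BL-41 and 97.2 CPM in Jiyoye, values that are uncertain because these genes are nearly identical. The MAGEA3 difference was 1.17, and 0.84 between the FOXO3 shRNA arms. Of 15 HOX, MEIS and PBX genes 6 were higher in BL-41 (40%) and 3 in Jiyoye (20%). Over all genes compared the shares were 14.3% and 19.8%. HOXC4 was within 2-fold at 32.1 CPM in BL-41 and 26.5 CPM in Jiyoye. Among glutathione transferases GSTP1 was even at 407 CPM in BL-41 and 393 CPM in Jiyoye (-0.05 ± 0.13), whereas the microsomal enzymes differed in both directions. MGST1 was at 52.2 CPM in BL-41 and 0.0645 CPM in Jiyoye, with 7 Jiyoye reads, while MGST2 was at 15.0 CPM in BL-41 and 59.4 CPM in Jiyoye (1.98 ± 0.17).

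Differences were also read along the genome. Over expressed genes (mean of both lines 5 CPM or more), placed by RefSeq (GRCh38.p14), chromosome 13 had the lowest median difference, -0.42 over 177 genes, with 22.03% of them higher in BL-41 and 6.78% in Jiyoye. Chromosome 14 had the highest, 0.24 over 363 genes, with 25.1% higher in Jiyoye and 7.16% in BL-41. The other chromosomes lay between, a range of 0.67, and the middle 50% of genes of every chromosome overlapped that of every other. Medians over 10126 runs of 15 neighbouring genes lay between -0.62 and 0.84 for 90% of runs. The run furthest towards BL-41 lay at chr1:143955287-145996579, with a median of -1.65 and 12 of 15 genes higher in BL-41. It holds TXNIP, an inhibitor of glucose uptake, at 378 CPM in BL-41 and 120.1 CPM in Jiyoye, and RBM8A, a core exon junction protein, at 339.8 CPM in BL-41 and 89.3 CPM in Jiyoye, beside families of duplicated genes whose reads are hard to assign. The run furthest towards Jiyoye lay at chr2:148020927-157318491, with a median of 2.43 and 9 of 15 genes higher in Jiyoye, among them GALNT5 at 0.185 CPM in BL-41 and 225 CPM in Jiyoye. The run second to it, at chr3:113747035-120094447, includes CD80 and had 14 of 15 genes higher in Jiyoye with a median of 1.95. Neighbouring runs share genes, and DNA copy number was not measured here.

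**Figure D5:**
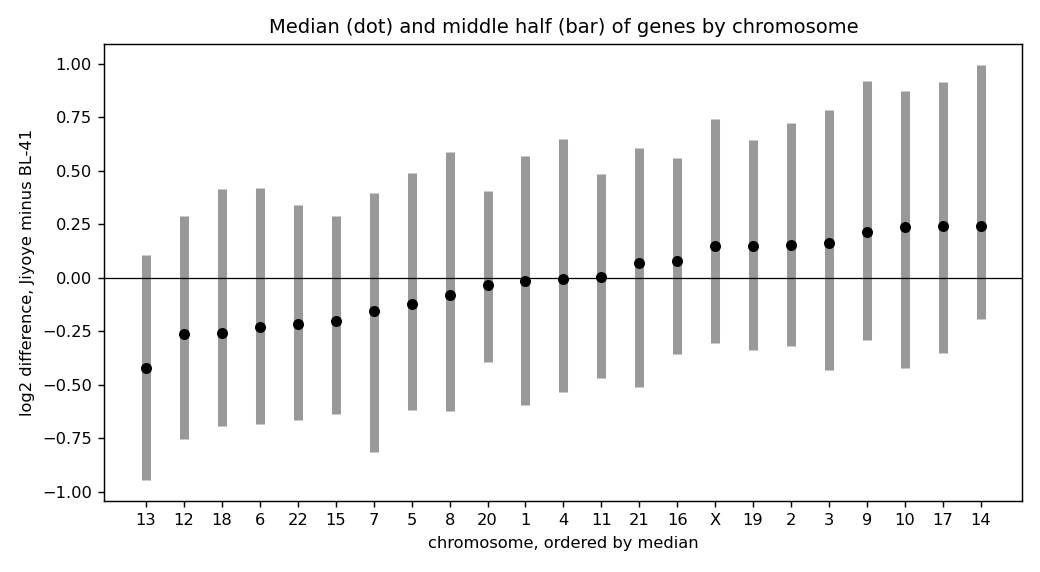
Median (dot) and middle 50% (bar) of the log2 difference, Jiyoye minus BL-41, over genes whose mean of both lines was 5 CPM or more, by chromosome in order of the median. Chromosome 13 lies lowest at -0.42 and chromosome 14 highest at 0.24, and the bars of all chromosomes overlap.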

How the data were processed

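Messenger RNA was measured in 18 libraries, and the 6 scrambled shRNA libraries of BL-41 and Jiyoye were used, with Namalwa values beside them. The series' design text names SOAPnuke for read filtering. The genome hg38 and the tools Bowtie2, RSEM and DESeq2 come from the submitters' processing notes, and their versions are not given in the sources used here. The authors deposited 1 table per line, which holds gene lengths and 1 signal value per arm, normalized by library size. The log2 ratio of a line's arm values equals the log2 fold change, moderated towards 0, that the authors deposited, so an arm value is not a plain mean. The p-values the authors deposited, with that fold change, gave an SE per line. The approximate SE of a difference is the root of the mean of both lines' squared SE. It is understated for low genes.

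Each scrambled column was scaled to a sum of 1000000 over all rows, genes were joined by identifier, and log2 values were subtracted with no pseudocount. Genes with at least 1 CPM in the higher line were compared. A count test, planned in case the tables held counts per library, could not be used. Reads in 6 libraries are the mean of both arm values times 6, and intervals of ratios are 95% counting intervals from those reads. The ratios are of the scrambled arms alone, so these intervals are narrower than the scrambled reads alone would give. The members and the 33 gene lists were chosen with earlier results of these data known.

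Genes are named by a rule. It takes the 12 largest differences per direction with at least 20 CPM in the higher line, key members of each list with up to 4 others of the largest difference and at least 5 CPM, and up to 3 genes of the highest level in the extreme runs. From these 295 genes a part is printed, and some are not reported here. Genes singled out outside the rule, such as those over 30 reads, those in 1 table only and some list members, were chosen after their values were seen. RefSeq matched 12330 of the compared genes (99.9%), and 51 had lengths that differ over 1.5-fold between the tables. The scripts were tested on simulated data. The work was done in Python 3.11.15, with pandas 2.3.3, numpy 2.4.6 and scipy 1.17.1, and figures were drawn with matplotlib 3.10.9.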

Additional observations from a re-analysis of the deposited data

How the results depend on the processing

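Counts of genes past the fold depended most on the threshold. With a fold of 4 in place of 2, 1226 genes were higher in Jiyoye (2448 at 2-fold) and 851 in BL-41 (1760 at 2-fold), and the different genes of the lists past the fold in either direction went from 281 to 156. With at least 10 CPM in the higher line, 1563 genes were higher in Jiyoye. Over the 9 alternatives the share of called genes higher in Jiyoye ran from 55.5% to 60.5%, against 58.2%. Scaling over shared genes, centring on the median, a pseudocount of 1 CPM and values per gene length, the last chosen after seeing the data, turned the direction of none of the 231 named genes past 2-fold. Between the FOXO3 shRNA arms IRF4 was reversed, at -0.55 against 1.45, and the cause was not tested. Genes under 2-fold that changed sign there, such as RELB, LGALS1, HLA-DOB and TCL1A, were not called in the scrambled arms. In that setting 19 of the 231 genes, IRF4 among them, were under 2-fold, and 9 were with the mean of both arms. These arms are not independent of the scrambled ones. No paired analysis was possible because each table holds 1 value per arm, and for the same reason leaving out each replicate could not be run. Values resting on a few reads fix a direction but not a size.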

Other observations

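Some genes differed between the lines by other amounts when the FOXO3 shRNA arms were compared, and the genes given here were chosen after their values were seen. JCHAIN was even with scrambled shRNA and at 452 CPM in BL-41 and 1087 CPM in Jiyoye with FOXO3 shRNA (1.26). MYC went from a difference of 1.40 to 2.19 and BCL2A1 from 1.22 to 2.00. Narrower differences with FOXO3 shRNA were found for CD79B (-4.12 to -2.71), VPREB3 (-3.16 to -2.01), SPI1 (-1.88 to -1.08), CCL4 (-3.77 to -2.24), IKZF3 (2.27 to 1.34) and CFLAR (1.67 to 1.00), and a wider one for TXNIP (-1.65 to -2.60). The surrogate light chain gene IGLL1 went from -5.13 to -2.60, and the tetraspanin CD81 from -0.91 to -0.02. SAMD9L, an interferon-stimulated growth inhibitor, went from -1.23 to -0.06. Both arms of a line share the authors' moderated model, so these values are not independent of the scrambled comparison, and no test of the change was run here.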
